A study of Homo sapiens with 18 samples.

Results

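The genes described here are 48 genes of the cell division cycle, and 47 of them were measured in HEK293 cells that met bacterial flagellin. Members were the rows of the value table to which the platform's annotation gave exactly 1 member symbol, and the row with the highest mean stood for a gene with several rows, which applied to RRM2. BUB1B, a spindle checkpoint kinase, had only a row shared with PAK6 and has no value here. Of the 47, 20 act at the entry into and during DNA replication (S phase genes) and 27 act in G2 phase and mitosis (mitotic genes), among 16111 genes tested. Each of the 47 lay above the median of its own array on all 18 arrays, so the filter on low values removed none.

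A cell enters S phase when cyclins D and E with their kinases free the E2F transcription factors from the pocket proteins, and E2F then drives the genes for licensing and copying DNA. The MCM proteins form the ring of the replicative helicase, which CDC6 and CDT1 load onto DNA and which CDC45 and the GINS complex activate. In G2 phase cyclins A and B with CDK1, the Aurora and Polo kinases, the spindle proteins and the checkpoint proteins accumulate, largely through factors that bind promoter elements called CHR and CCAAT box. The anaphase-promoting complex then marks cyclin B and securin for destruction, and the cell divides. A line that divides continuously, such as HEK293, holds cells of every phase at any time.

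HEK293 is a human embryonic kidney line. The cells overexpressed murine TLR5, the membrane receptor for flagellin, in all groups, mock included. They had been cultured to passage 7 with amino acids of heavy, medium or light isotopes, and the sources used here do not say which array had which isotope label. The 6 groups were mock at 60 min, flagellin of E. coli Nissle (EcN) at 60 min, flagellin of Salmonella Typhimurium SL1344 (ST) at 60 min, and the same 3 at 120 min, with a flagellin dose matched to a multiplicity of infection of 10. Each group had 3 Affymetrix Human Gene 2.1 ST arrays lettered A, B and C, 18 in all. The titles call the letters biological replicates but do not say that they came from separate cultures, and p-values then measure only the spread between these arrays. The design limits the groups as a model: the receptor is a mouse transgene in 1 human line, and the isotope label cannot be told apart from the treatment.

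The labels of the ST arrays conflict with each other, and NFKBIA did not follow the groups. Whether any array is mislabelled cannot be told from these sources. The titles, source names and treatment fields of the 6 ST arrays name ST while their description fields name mock, and the titles were followed. NFKBIA, the inhibitor that NF-kB itself induces, lay between 10.15 and 10.85 on the array lettered C of each flagellin group and on mock 120 min A, and between 8.09 and 8.82 on the other 13 arrays. Called genes are therefore given with these 5 arrays and without them. All 5 HEK293 markers on the list (PAX2, VIM, KRT18, NES and INA) were measured on every array, at unlike levels. INA lay at 7.58 to 8.66, VIM at 7.55 to 8.48, PAX2 at 5.23 to 6.17 and KRT18 at 5.06 to 5.88. NES lay low, at 2.99 to 3.74. Of the markers of other cells, the leukocyte genes PTPRC, CD3E and ITGAM lay between 1.10 and 2.42, near the bottom of the scale. The fibroblast genes COL1A2 and DCN lay there too, between 1.25 and 2.01. CD68, also listed for leukocytes, lay at 8.89 to 9.46. Of the other fibroblast genes, COL1A1 lay at 4.36 to 4.99, LUM at 4.83 to 6.32 and THY1 at 2.24 to 2.97. The mean level of the 4 leukocyte markers that have a row ran from 3.35 to 3.69 over all arrays, with overlap between all groups. The other lists did not all overlap. The mean of the 5 HEK293 markers was 6.15 to 6.27 on mock at 60 min, 6.05 to 6.12 with EcN and 6.21 to 6.34 with ST, and that of the 5 markers of intestinal epithelium was 5.43 to 5.49, 5.16 to 5.30 and 5.24 to 5.43. The mean of the 5 fibroblast markers was 3.19 to 3.34 on mock at 120 min, 3.25 to 3.37 with EcN and 2.96 to 3.07 with ST, and LUM among them was called with ST at 120 min (-0.997, adjusted p = 0.0419, and -1.17 with 0.0443 without the 5 arrays). The part of these lists in the members' differences was not tested. The stem cell receptor LGR5 and EPCAM, listed as markers of intestinal epithelium, were measured at 8.13 to 9.15 and at 7.64 to 8.27. The others on that list lay lower, CDX2 at 5.20 to 6.39, VIL1 at 2.04 to 2.83 and KRT20 at 1.36 to 2.07. The number of arrays limits the precision, and levels are on a log2 scale throughout.

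The members varied little over the arrays. The median SD of a member over the 18 arrays was 0.14 on the log2 scale, against 0.21 over all genes tested. The median SD within groups was 0.11 against 0.18. The comparison was not matched for level, and whether level accounts for the difference was not tested. RRM1, the large subunit of the enzyme that makes deoxyribonucleotides, varied least, with an SD of 0.07, and CCNE2, a cyclin of the G1 to S transition, varied most, with 0.28.

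At 60 min, 6 members differed between flagellin and mock, 4 higher and 2 lower, a share near that of all genes and one that depended on single arrays. A gene was called when its p-value from the limma fit, adjusted by the Benjamini-Hochberg method over all 16111 genes, was under 0.05. Against mock, the mean of both flagellins was called for 6 members. PCNA, the sliding clamp of the DNA polymerases, and the helicase subunits MCM3 and MCM6 rose, as did PRC1, which bundles microtubules of the central spindle. BUB1, a kinase of the spindle checkpoint, and KIF20A, a kinesin needed for cytokinesis, fell. These 6 are 12.8% of the members, near the 10.3% called among all genes tested. EcN alone was called for 2 members, BUB1 and PRC1, or 4.26% against 6.45% of all genes, and ST alone for 1, BUB1, or 2.13% against 5.26%. The 3 comparisons share the same 3 mock arrays. All 6 flagellin arrays lay on one side of all 3 mock arrays for 12 members (25.5%), 6 higher and 6 lower, against 17.6% of all genes. In cells of mixed phase, a lower transcript level can mean fewer cells in the phase that makes it or less of it per cell, and these cannot be told apart here.

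The count of 6 depended on single arrays. It was 0 without mock 60 min B and 0 without mock 60 min C, 3 without mock 60 min A, and 11 without mock 120 min A, an array outside the comparison that enters through the shared estimate of spread. It was 2 without EcN 60 min B or ST 60 min B, and 3 without ST 60 min C, EcN 120 min B or ST 120 min A. Without the 5 arrays with high NFKBIA it was 4 (CDC6, BUB1, MCM6 and KIF20A; 8.51%, against 9.39% of all genes), and without the 6 arrays lettered C it was 0 (against 1.51%). The share of all genes called moved as well, from 2.18% without mock 60 min C to 14.1% without mock 120 min A when 1 array was left out. The count for EcN alone was 0 without any single one of mock 60 min B and C and the 3 arrays of EcN 60 min. The same count was 1 without mock 60 min A, any 1 of the EcN 120 min or ST 60 min arrays, or ST 120 min A or B, 6 without mock 120 min A and 5 without mock 120 min C. For ST alone it was 0 without mock 60 min B, mock 60 min C or any 1 of the ST 60 min arrays, 3 without mock 120 min A and 2 without mock 120 min C. Both counts were 0 without the 5 arrays with high NFKBIA.

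**Figure D1:**
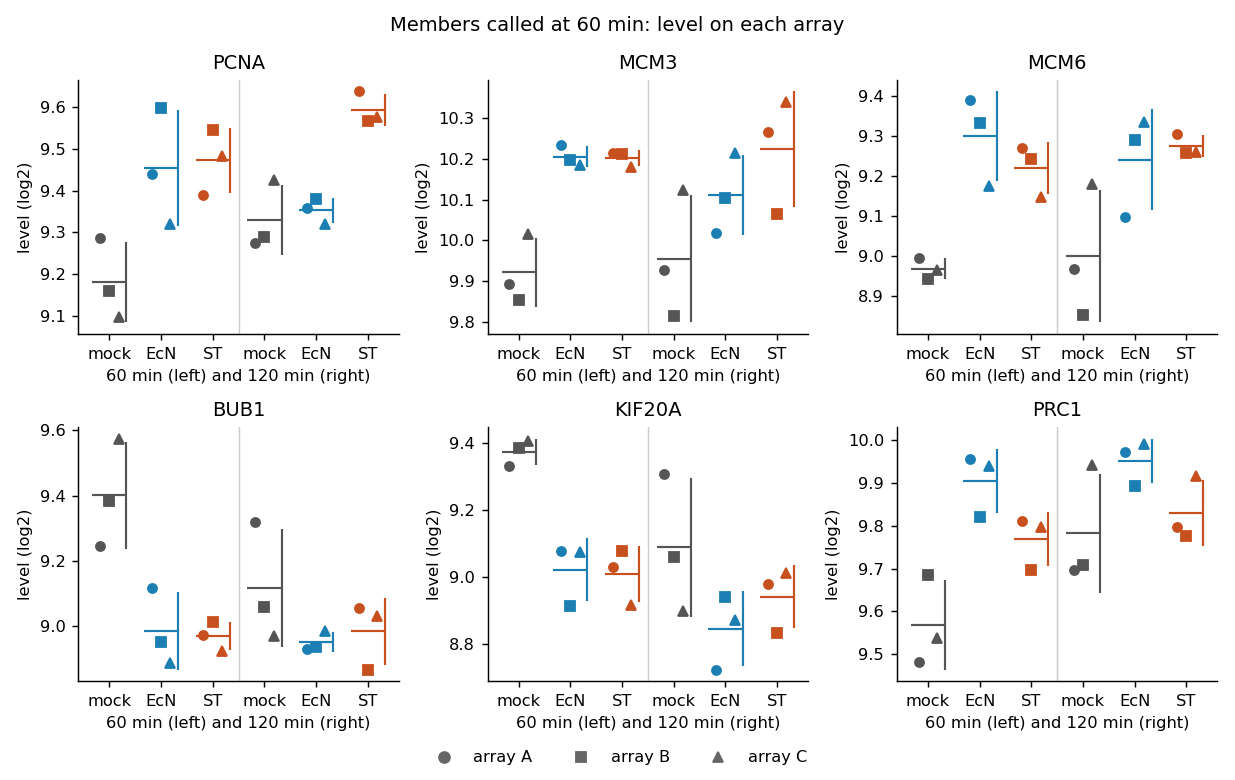
Level (log2) of the 6 members called at 60 min on each of the 18 arrays (mock grey, EcN blue, ST orange), with circles, squares and triangles for arrays A, B and C, a horizontal line at the group mean and a vertical bar of 1 SD on each side of it. At 60 min the 3 mock arrays of BUB1 (9.25 to 9.57) and KIF20A (9.33 to 9.41) lie above every flagellin array, while those of PCNA, MCM3 and MCM6 lie below every flagellin array.

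The upstream windows of these 6 genes are shown because the 2 classes differ in the promoter elements that are known to drive them. Each window runs from 250 bases before to 30 bases after the RefSeq start of the gene on the GRCh38.p14 assembly, 280 bases in all, read 5′ to 3′ on the gene's strand. Capitals mark the letters searched for on both strands. These were the E2F site (TTTCCCGC, TTTCGCGC, TTTGCCGC or TTTGGCGC), the CHR element (TTTGAA or TTCGAA) and the CCAAT box (CCAAT, read as ATTGG on the other strand). In MCM6 the capital runs hold a match on each strand that overlap, and TTCGAA reads the same on both strands. The 3 S phase genes come first and the 3 mitotic genes after them.
PCNA: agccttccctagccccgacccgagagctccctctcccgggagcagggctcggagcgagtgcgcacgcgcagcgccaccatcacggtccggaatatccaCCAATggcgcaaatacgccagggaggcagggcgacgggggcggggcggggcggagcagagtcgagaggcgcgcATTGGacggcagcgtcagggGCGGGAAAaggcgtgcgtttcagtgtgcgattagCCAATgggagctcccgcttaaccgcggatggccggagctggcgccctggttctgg
MCM3: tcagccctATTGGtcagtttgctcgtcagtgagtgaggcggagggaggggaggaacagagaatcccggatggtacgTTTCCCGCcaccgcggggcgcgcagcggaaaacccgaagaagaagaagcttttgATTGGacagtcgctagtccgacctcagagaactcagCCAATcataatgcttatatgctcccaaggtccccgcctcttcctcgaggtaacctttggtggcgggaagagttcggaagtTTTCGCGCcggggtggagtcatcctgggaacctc
MCM6: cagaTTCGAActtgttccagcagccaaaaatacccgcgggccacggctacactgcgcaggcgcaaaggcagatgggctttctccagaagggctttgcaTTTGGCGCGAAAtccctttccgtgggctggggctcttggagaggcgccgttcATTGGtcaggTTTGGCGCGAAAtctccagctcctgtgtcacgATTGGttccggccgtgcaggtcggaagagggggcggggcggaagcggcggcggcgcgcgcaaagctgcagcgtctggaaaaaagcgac
BUB1: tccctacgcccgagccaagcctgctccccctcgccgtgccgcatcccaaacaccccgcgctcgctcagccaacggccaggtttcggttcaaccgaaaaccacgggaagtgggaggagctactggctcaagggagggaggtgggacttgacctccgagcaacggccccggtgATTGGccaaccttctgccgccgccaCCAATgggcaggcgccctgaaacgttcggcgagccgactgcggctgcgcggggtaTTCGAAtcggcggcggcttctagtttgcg
KIF20A: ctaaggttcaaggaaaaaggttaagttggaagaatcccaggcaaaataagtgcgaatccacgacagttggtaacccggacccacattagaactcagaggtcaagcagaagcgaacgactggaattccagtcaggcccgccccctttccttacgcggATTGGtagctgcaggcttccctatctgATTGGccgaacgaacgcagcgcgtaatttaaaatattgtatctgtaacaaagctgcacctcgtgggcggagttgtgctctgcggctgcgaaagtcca
PRC1: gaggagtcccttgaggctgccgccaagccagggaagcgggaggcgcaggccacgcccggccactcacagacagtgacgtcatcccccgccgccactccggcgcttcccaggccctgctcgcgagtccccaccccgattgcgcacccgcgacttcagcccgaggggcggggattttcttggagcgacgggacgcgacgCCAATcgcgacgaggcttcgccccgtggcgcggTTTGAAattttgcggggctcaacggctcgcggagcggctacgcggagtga

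The window of PCNA, the first of 2 listed for it, lies on the minus strand at chr20:5126593-5126872, MCM3 on the minus strand at chr6:52284713-52284992 and MCM6 on the minus strand at chr2:135876414-135876693. The mitotic genes BUB1 and PRC1 lie on the minus strand at chr2:110678034-110678313 and chr15:90994506-90994785, and KIF20A on the plus strand at chr5:138178862-138179141. PCNA has 1 E2F match 59 bases before the start, MCM3 has 2, at 174 and 4 bases before it, and MCM6 has its pairs of overlapping matches at 152 and 90 bases before it. None of the 3 mitotic windows holds these E2F letters. BUB1 has a CHR match that begins at base 2 after the start and PRC1 has one 20 bases before it, and KIF20A has 2 CCAAT boxes and no CHR letters in this window. CHR letters also stand in the S phase gene MCM6, 246 bases before its start.

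The letters were counted over all members with a window, 16 S phase and 23 mitotic genes, the latter with BUB1B. E2F letters stood in at least 1 window of 12 of the 16 S phase genes (75%) and 2 of the 23 mitotic genes (8.7%), against 3.82% of the 27305 genes in the table. CHR letters stood in 2 of 16 S phase genes (12.5%) and 16 of 23 mitotic genes (69.6%), against 18.7% of all genes. CCAAT boxes stood in 12 and 20 genes (75% and 87%), against 38.7%. Both elements together stood in 2 S phase and 14 mitotic genes (12.5% and 60.9%), against 7.26%. A match describes these letters and is not a measured binding site.

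Among the G1 cyclins and E2F1, no gene was called in any comparison with mock. CCNE2 (transcript cluster 17079293), the second E-type cyclin, had log2 levels of 6.13, 5.95 and 6.12 on mock A, B and C at 60 min, 5.17, 5.88 and 5.54 with EcN and 5.60, 5.65 and 5.59 with ST. All 6 flagellin arrays lay below the 3 mock arrays, by -0.49 ± 0.16 (SE) for the mean of both, with an adjusted p of 0.0542. At 120 min the mock arrays themselves spread from 5.46 to 6.23, with mock 120 min A the highest of all 18, and the flagellin arrays between 5.34 and 5.90 overlapped them.

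CCNE1 (16860418), the first E-type cyclin, stayed within a narrow band, at 8.08, 8.09 and 8.15 on mock, 8.02, 7.93 and 8.04 with EcN and 8.07, 8.12 and 8.002 with ST at 60 min. Its differences were -0.11 for EcN and -0.04 for ST, each with an SE of 0.10. At 120 min mock lay at 8.30, 8.001 and 7.89, EcN at 8.16, 8.18 and 8.08 and ST at 8.26, 8.28 and 8.22, so that mock 120 min A was the highest of these 9 arrays. CCND1 (16728261), the D-type cyclin that links growth signals to the cycle, had 7.13, 6.93 and 7.15 on mock at 60 min, 7.24, 7.44 and 7.40 with EcN and 7.18, 7.16 and 7.07 with ST. All 3 EcN arrays lay above the mock arrays (difference 0.29 ± 0.10, adjusted p = 0.103), whereas the ST arrays overlapped mock and lay below every EcN array. At 120 min CCND1 stood at 7.26, 7.25 and 7.53 on mock, 7.44, 7.57 and 7.29 with EcN and 7.15, 7.24 and 7.16 with ST, and the ST arrays lay below every EcN and every mock array. E2F1 itself differed from mock by -0.04 with EcN and 0.08 with ST at 60 min. At 120 min it lay at 8.58 to 8.84 on mock, 8.79 to 9.01 with EcN and 8.954 to 9.035 with ST. Every ST array there lay above every mock array, without a call.

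Of the 10 genes of the replicative helicase and its loading, 2 rose at 60 min for the mean of both flagellins and none fell. The share called was 20.0%, against 10.3% of all genes. The fitted difference was above 0 for 9 of the 10, with a median of 0.14, against a median of 0.01 over all genes tested. MCM6 (16903090) had levels of 8.996, 8.94 and 8.97 on mock A, B and C, 9.39, 9.33 and 9.18 with EcN and 9.27, 9.24 and 9.15 with ST at 60 min. Every flagellin array lay above every mock array, by 0.29 ± 0.09 or 1.22-fold (adjusted p = 0.0414). Without the 5 arrays with high NFKBIA the difference was 0.34, with an adjusted p that rounds to the threshold of 0.05 itself and lies just under it.

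MCM3 (17020019) had 9.89, 9.85 and 10.02 on mock, 10.24, 10.20 and 10.19 with EcN and 10.22, 10.21 and 10.18 with ST. The groups did not overlap, and the 6 flagellin arrays lay between 10.18 and 10.24. The difference was 0.28 ± 0.09 (adjusted p = 0.0472), and without the 5 arrays it was 0.29 with an adjusted p of 0.0876. At 120 min MCM3 stood at 9.93, 9.81 and 10.12 on mock, 10.02, 10.10 and 10.22 with EcN and 10.27, 10.07 and 10.34 with ST, where mock C overlapped both flagellins.

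MCM2 (16945101), another subunit of the same ring, had 9.26, 9.09 and 9.12 on mock, 9.22, 9.22 and 9.34 with EcN and 9.33, 9.23 and 9.35 with ST at 60 min, with overlap. Its difference was 0.13 ± 0.08. MCM4, MCM5 and MCM7 had differences of 0.00, 0.15 and 0.08, none called. The fit gives a 95% interval of -0.16 to 0.17 for MCM4.

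The 2 loading factors lay on opposite sides of mock. CDT1 (16821869), which brings the helicase to origins and is blocked in S phase by geminin and by degradation, had 8.88, 8.65 and 8.72 on mock, 8.92, 9.29 and 9.04 with EcN and 8.96, 9.25 and 9.14 with ST at 60 min. All 6 flagellin arrays were above the mock arrays (0.35 ± 0.11, adjusted p = 0.0516). CDC6 (16834056), the loader ATPase that works with CDT1, had 8.62, 8.83 and 8.94 on mock, 8.50, 8.33 and 8.52 with EcN and 8.44, 8.51 and 8.60 with ST. Its flagellin arrays were all below the mock arrays (-0.31 ± 0.11, adjusted p = 0.0759), and the fit called it without the 5 arrays with high NFKBIA (-0.35, adjusted p = 0.0459). GINS2 (16828886), a subunit of the helicase activator, had 8.89, 8.89 and 8.89 on mock, 9.13, 9.15 and 9.03 with EcN and 9.23, 9.18 and 9.14 with ST, with no overlap (0.25 ± 0.09, adjusted p = 0.0707). CDC45, its partner, differed by 0.07 ± 0.09.

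Of the 6 genes of DNA synthesis and nucleotide supply, PCNA alone was called at 60 min (16.7%, against 10.3% of all genes). PCNA (16916958) had levels of 9.29, 9.16 and 9.10 on mock, 9.44, 9.60 and 9.32 with EcN and 9.39, 9.55 and 9.48 with ST. Every flagellin array lay above every mock array, by 0.28 ± 0.08 or 1.22-fold (adjusted p = 0.0340). Without the 5 arrays it was 0.31 with an adjusted p of 0.0543. At 120 min PCNA stood at 9.27, 9.29 and 9.43 on mock, 9.36, 9.38 and 9.32 with EcN and 9.64, 9.57 and 9.58 with ST, so that ST lay above mock on all 3 arrays (0.26 ± 0.09, adjusted p = 0.159) and EcN did not (0.02 ± 0.09). RRM1, RRM2 and TYMS, which supply deoxyribonucleotides, differed by -0.05 to 0.05 at 60 min.

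Among the 27 mitotic genes, the fitted difference for the mean of both flagellins at 60 min was below 0 for 23, with a median of -0.13, and among the 20 S phase genes it was above 0 for 15, with a median of 0.07. Over all 16111 genes it was above 0 for 8257 and below 0 for 7854. Genes of a class varied together within groups, with a median correlation of 0.30 for mitotic and 0.19 for S phase pairs. Counts of signs over a class are therefore not counts of independent genes. At 120 min the mitotic genes did not lean the same way: 15 were above 0 and 12 below, with a median of 0.04, while 17 of the 20 S phase genes were above 0, with a median of 0.11, against 8044 of all 16111 genes. At 60 min, of the mitotic genes 2 fell, 1 rose and 24 were not called, and of the S phase genes 3 rose, none fell and 17 were not called.

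None of the 4 genes of the mitotic cyclins and CDK1 was called. CCNB1 (16985599), the cyclin that drives entry into mitosis, had 7.24, 7.64 and 7.62 on mock, 7.72, 7.36 and 7.40 with EcN and 7.32, 7.39 and 6.98 with ST at 60 min. The groups overlapped, and EcN A, at 7.72, was the highest of the 18 arrays. CDK1 (16705159), its kinase, had 6.76, 6.91 and 7.07 on mock, 7.20, 6.86 and 6.86 with EcN and 6.68, 6.79 and 6.98 with ST, again with EcN A the highest. The difference for the mean of both was -0.02, with a 95% interval of -0.23 to 0.20. CCNA2, the cyclin of S and G2 phase, differed by -0.16 ± 0.10.

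Of the 6 kinases and checkpoint genes, all had a fitted difference below 0 at 60 min. Mitotic genes varied together within groups, so these are not 6 independent signs. Of the 6, 1 was called (16.7%, against 10.3% of all genes). BUB1 (16901755) had levels of 9.25, 9.38 and 9.57 on mock A, B and C, 9.12, 8.95 and 8.89 with EcN and 8.98, 9.01 and 8.93 with ST. Every flagellin array lay below every mock array, by -0.42 ± 0.09 or 1.34-fold (adjusted p = 0.0134). It was the only member called with each flagellin alone, at -0.42 ± 0.11 for EcN (adjusted p = 0.0362) and -0.43 ± 0.11 for ST (adjusted p = 0.0339). Without the 5 arrays with high NFKBIA the mean difference was -0.39 (adjusted p = 0.0374), and without the 6 arrays lettered C it was -0.30 (adjusted p = 0.187).

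AURKA (16920548), the centrosomal Aurora kinase, had 6.59, 6.67 and 7.13 on mock, 6.96, 6.61 and 6.44 with EcN and 6.25, 6.55 and 6.40 with ST at 60 min. Over the 18 arrays it ran from 6.25 to 7.13, and the groups overlapped (-0.26 ± 0.16, adjusted p = 0.316). PLK1 (16817017), the Polo kinase of mitotic entry, had 11.32, 11.43 and 11.54 on mock, 11.36, 11.41 and 11.21 with EcN and 11.14, 11.29 and 11.21 with ST, with the ST arrays all below mock and the EcN arrays overlapping it. TTK, AURKB and BIRC5, of the spindle checkpoint and the chromosomal passenger complex, differed by -0.15, -0.07 and -0.08, none called.

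Of the 9 kinesins and spindle proteins, 1 fell and 1 rose (22.2%, against 10.3% of all genes). KIF20A (16989636) had 9.33, 9.38 and 9.41 on mock, 9.08, 8.92 and 9.08 with EcN and 9.03, 9.08 and 8.92 with ST. The mock arrays lay together and above every flagellin array, and the difference was -0.36 ± 0.09 or 1.28-fold lower (adjusted p = 0.0245). Without the 5 arrays it was -0.35 (adjusted p = 0.0422), and without the arrays lettered C -0.33 (adjusted p = 0.159). PRC1 (16813342) went the other way, with 9.48, 9.69 and 9.54 on mock, 9.96, 9.82 and 9.94 with EcN and 9.81, 9.70 and 9.80 with ST. Its groups did not overlap, though ST B and mock B differed by little. The difference was 0.27 ± 0.08 (adjusted p = 0.0445) for the mean and 0.34 ± 0.09 for EcN (adjusted p = 0.0433), and without the 5 arrays it was 0.25 with an adjusted p of 0.116.

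CENPE (16978568), the kinesin that moves chromosomes to the spindle equator, had 7.61, 7.57 and 7.81 on mock, 7.52, 7.21 and 7.34 with EcN and 7.27, 7.25 and 7.23 with ST at 60 min. All 6 flagellin arrays lay below the mock arrays, at -0.36 ± 0.13 (adjusted p = 0.0784). KIF11, the kinesin that separates the spindle poles, differed by 0.08 ± 0.10, and TPX2, which activates Aurora A on the spindle, by -0.24 ± 0.11, neither called.

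None of the 3 genes of chromosome structure and proliferation was called. TOP2A (16844312), the topoisomerase that untangles sister chromosomes, had 10.31, 10.35 and 10.44 on mock, 10.54, 10.35 and 10.36 with EcN and 10.30, 10.23 and 10.36 with ST at 60 min. The groups overlapped, and the 95% interval of the mean difference was -0.18 to 0.16. MKI67 (16719515), the gene of the Ki-67 antigen, had 10.16, 10.06 and 9.97 on mock, 10.05, 10.05 and 10.01 with EcN and 9.83, 9.81 and 9.83 with ST. The EcN arrays lay among the mock arrays and the ST arrays below all of them (-0.24 ± 0.09, adjusted p = 0.120). For cytokinesis, ANLN, the scaffold of the contractile ring, was lower on all 6 flagellin arrays (-0.26 ± 0.09, adjusted p = 0.0864), and ECT2, which activates RhoA at the cell middle, differed by -0.20 ± 0.09 (adjusted p = 0.149).

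The anaphase-promoting complex was represented by its activator CDC20, its ubiquitin-conjugating enzyme UBE2C and its substrate PTTG1 (securin), and none of the 3 was called. CDC20 (16663514) had 10.71, 10.66 and 10.77 on mock, 10.54, 10.49 and 10.51 with EcN and 10.53, 10.67 and 10.61 with ST at 60 min, where only EcN lay wholly below mock. UBE2C (16914315) had 6.05 and 6.07 on mock A and C with mock B just below them, 6.01, 6.15 and 6.22 with EcN, and 5.70 and 5.91 on ST A and B with ST C level with mock B. PTTG1 (16991741), the least even of the 3, had 4.46, 4.40 and 4.56 on mock, 4.70, 4.19 and 4.89 with EcN and 4.60, 4.55 and 4.81 with ST, with the EcN arrays on both sides of mock.

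**Figure D2:**
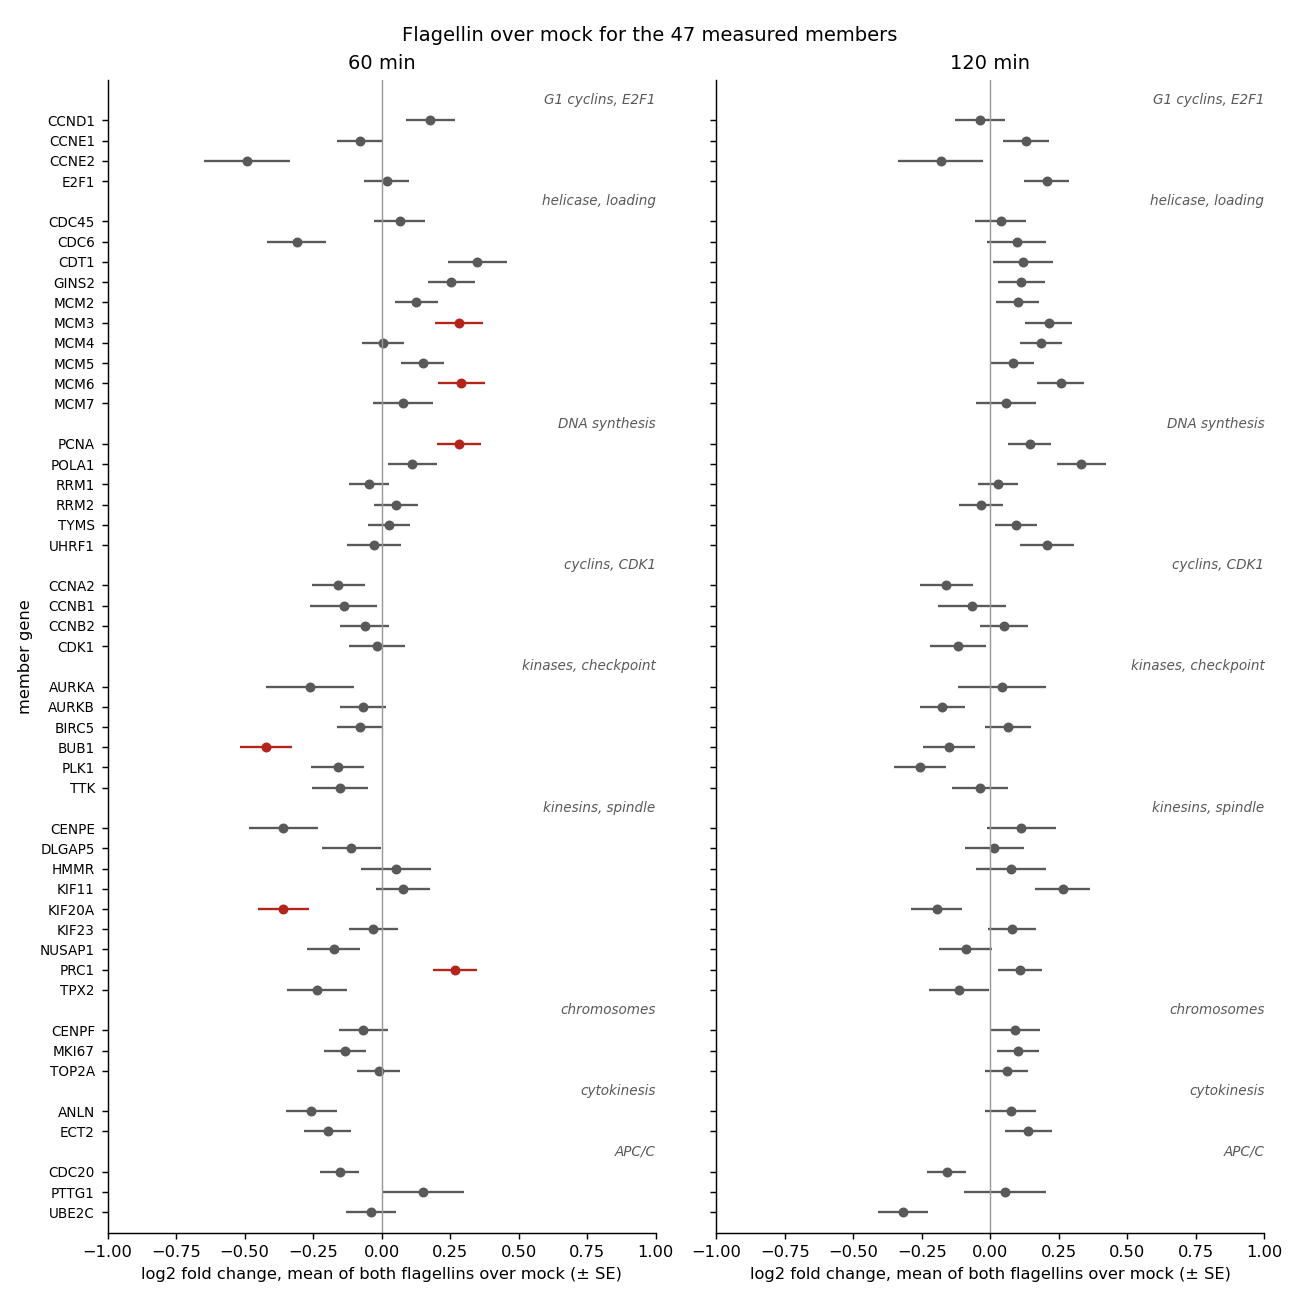
Log2 fold change of each of the 47 members, both flagellins averaged and set against mock, at 60 min (left) and 120 min (right), with bars of 1 SE, genes grouped by role and called members in red. The 6 called members are all at 60 min, and at 120 min the points lie between -0.32 (UBE2C) and 0.33 (POLA1) with none called.

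At 120 min no member was called with either flagellin. The fit called 0.0621% of all genes with EcN, 0.559% with ST and 0.732% with the mean of both, so the members stood near the background. At an unadjusted p under 0.05, 8 members passed with EcN (17%, against 16.5% of all genes) and 8 with ST (17%, against 17.6%). For the mean of both it was 10 (21.3%, against 18.7%), 7 higher and 3 lower. All 6 flagellin arrays lay on one side of the mock arrays for 2 members (4.26%), POLA1 higher and CDK1 lower, against 6.05% of all genes. The EcN count was 2 without mock 120 min C (KIF11 and MKI67; 4.26%, against 7.31% of all genes in that fit). The ST count was 3 without mock 120 min A (CCNE1, UBE2C and POLA1; 6.38%, against 5.62%) and 2 without mock 120 min C (MCM6 and POLA1; 4.26%, against 4.44%). The count for the mean was 1 (2.13%, against 3.41%) and 3 (6.38%, against 7.74%) without these arrays.

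POLA1 (17102230), the catalytic subunit of the polymerase that starts each DNA strand, had 8.34, 7.99 and 8.32 on mock A, B and C at 120 min, 8.40, 8.53 and 8.58 with EcN and 8.54, 8.58 and 8.67 with ST. Mock B stood below the rest of the 18 arrays, and every flagellin array lay above every mock array (0.33 ± 0.09, adjusted p = 0.0739). At 60 min POLA1 had 8.51, 8.40 and 8.35 on mock, 8.34, 8.48 and 8.52 with EcN and 8.71, 8.55 and 8.58 with ST, with overlap between mock and EcN. UHRF1 (16857258), which carries DNA methylation through replication, had 9.70, 9.19 and 9.54 on mock at 120 min, 9.67, 9.80 and 9.72 with EcN and 9.60, 9.61 and 9.70 with ST, again with mock B the lowest of the 18 arrays. Its difference for EcN was 0.25 ± 0.11 (adjusted p = 0.273). MCM6 had 8.97, 8.85 and 9.18 on mock at 120 min, 9.10, 9.29 and 9.33 with EcN and 9.31, 9.26 and 9.26 with ST, so that all 3 ST arrays lay above mock (0.27 ± 0.10, adjusted p = 0.171) and EcN A lay below mock C.

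KIF11 (16707468) had 8.58, 8.23 and 8.70 on mock at 120 min, 8.75, 8.86 and 8.84 with EcN and 8.65, 8.70 and 8.80 with ST, and mock B was the lowest of the 18 arrays here too. Its difference for EcN was 0.31 ± 0.11 (adjusted p = 0.184). UBE2C had 6.22, 6.26 and 6.23 on mock, 6.25, 5.93 and 5.88 with EcN and 5.81, 5.81 and 5.85 with ST. All 3 ST arrays lay below mock, with a difference of -0.42 ± 0.11 (adjusted p = 0.0806), while EcN A lay among the mock arrays and EcN B and C below them.

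PLK1 had 11.62, 11.44 and 11.29 on mock at 120 min, 11.20, 10.997 and 11.23 with EcN and 11.29, 11.08 and 11.36 with ST. The difference was -0.31 ± 0.11 for EcN and -0.21 ± 0.11 for ST (adjusted p = 0.174 and 0.353). CDC20 had 10.69, 10.55 and 10.51 on mock, 10.29, 10.31 and 10.40 with EcN and 10.50, 10.58 and 10.47 with ST, and all 3 EcN arrays lay below all mock arrays (-0.25 ± 0.08, adjusted p = 0.142). MKI67 had 9.91, 9.83 and 10.10 on mock, 10.09, 10.23 and 10.27 with EcN and 9.90, 9.94 and 9.87 with ST, with EcN A just under mock C and the other EcN arrays above it.

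None of the 6 members called at 60 min was called at 120 min, when the mean of both flagellins differed from mock by 0.14 in PCNA, 0.21 in MCM3, 0.26 in MCM6 and 0.11 in PRC1. BUB1 had 9.32, 9.06 and 8.97 on mock at 120 min, 8.93, 8.94 and 8.99 with EcN and 9.06, 8.87 and 9.03 with ST, a difference of -0.15 ± 0.09 with a 95% interval of -0.35 to 0.05. KIF20A had 9.31, 9.06 and 8.90, 8.72, 8.94 and 8.87 and 8.98, 8.84 and 9.01 in the same order, a difference of -0.20 ± 0.09. In both genes mock 120 min A, which carries the high NFKBIA, lay with the mock 60 min arrays, and mock 120 min B and C lay close to the flagellin arrays. The change of the effect from 60 to 120 min was itself tested. No member was called for either flagellin, against 0.00% of all genes for EcN and 0.00% for ST. At an unadjusted p under 0.05, MKI67 and ECT2 passed for EcN (4.26%, against 12.0% of all genes) and CDC6, CENPE, ECT2 and ANLN for ST (8.51%, against 10.7%). Without mock 120 min A, 2 members were called for ST (4.26%, against 2.95% of all genes in that fit): CDC6 with a change of 0.65 (adjusted p = 0.0293) and CENPE with 0.78 (adjusted p = 0.0340).

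The direct comparison of the flagellins called no member. ST over EcN called 0.00% of all genes at 60 min and 0.00% at 120 min. At an unadjusted p under 0.05, 3 members passed at 60 min, all lower with ST (6.38%, against 9.19% of all genes): CCND1 at -0.22 ± 0.10, MKI67 at -0.21 ± 0.09 and UBE2C at -0.26 ± 0.11. At 120 min 5 passed (10.6%, against 11.7%). PCNA, GINS2 and CDC20 were 0.24, 0.23 and 0.18 higher with ST, and CCND1 and MKI67 were 0.25 and 0.30 lower, the smallest adjusted p being 0.258, for MKI67. MKI67 and CCND1 were thus lower with ST than with EcN at both times, on separate arrays, without passing the adjusted test at either. These misses do not show that the flagellins act alike. The 95% interval for PCNA at 120 min ran from 0.05 to 0.44. This interval is unadjusted and PCNA was picked from the 5 that passed, so it is no separate evidence of a difference.

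Mock at 120 over mock at 60 min called no member, against 0.00% of all genes. The unadjusted share of members lay near that of all genes. At an unadjusted p under 0.05, 7 members passed (14.9%, against 12.1% of all genes), CCND1 and PRC1 higher and BUB1, CENPE, KIF20A, ECT2 and ANLN lower. CENPE differed most, at -0.49 ± 0.15 (adjusted p = 0.245), with 7.61, 7.57 and 7.81 at 60 min and 7.52, 6.85 and 7.15 at 120 min. BUB1 and KIF20A differed by -0.28 each. Without mock 120 min A, 4 members were called lower (8.51%, against 6.08% of all genes in that fit): CENPE at -0.66, ANLN at -0.41, KIF20A at -0.39 and BUB1 at -0.39 (adjusted p = 0.0127, 0.0281, 0.0364 and 0.0485). Without the 5 arrays with high NFKBIA, CENPE and ANLN were called (4.26%, against 5.02%). BUB1, CENPE, KIF20A and ANLN were thus higher on the mock 60 min arrays than on mock 120 min B and C.

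With EcN, 120 against 60 min called no member (0.00% of all genes), and CDC20 alone passed unadjusted, at -0.18 ± 0.08 (2.13% of members, against 7.95% of all genes). With ST, none was called (0.00%), and CDC6 alone passed unadjusted, at 0.29 ± 0.12 (2.13%, against 4.80%). CDC6 stood at 8.44, 8.51 and 8.60 with ST at 60 min and 8.78, 8.74 and 8.90 at 120 min, the 3 later arrays all above the earlier ones. A test between the letters A, B and C called no member and 0.00% of all genes, and CENPE alone passed it unadjusted (2.13%, against 4.59%).

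The S phase average set against the mitotic average differed in sign between every mock and every ST array. Each gene's level was centred on its mean over the 18 arrays, and the centred levels were averaged over the 20 S phase and the 27 mitotic genes. The S phase mean at 60 min was -0.02, -0.07 and -0.07 on mock A, B and C, -0.04, 0.02 and 0.02 with EcN and 0.01, 0.04 and 0.03 with ST. The mitotic mean was 0.03, 0.08 and 0.17 on mock, 0.15, -0.05 and -0.04 with EcN and -0.07, -0.05 and -0.07 with ST. All 3 mock arrays of 60 min were thus below 0 in S phase genes and above 0 in mitotic genes, and all 3 ST arrays the reverse. At 120 min the mitotic mean overlapped, at 0.07, -0.08 and -0.002 on mock and -0.01, -0.11 and 0.05 with ST, and the S phase mean was 0.01, -0.16 and -0.03 on mock and 0.09, 0.04 and 0.11 with ST.

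The S phase minus the mitotic mean was -0.04, -0.16 and -0.25 on mock at 60 min and -0.07, -0.08 and -0.03 on mock at 120 min, below 0 on all 6. With ST it was 0.08, 0.09 and 0.10 at 60 min and 0.10, 0.15 and 0.06 at 120 min, above 0 on all 6. With EcN it was -0.19, 0.07 and 0.06 at 60 min and -0.02, 0.06 and 0.06 at 120 min, below 0 on both arrays lettered A and above 0 on the other 4. EcN 60 min A had a mitotic mean of 0.15, next to the 0.17 of mock 60 min C. These averages describe the members on these arrays and carry no test. Of the 5 arrays with high NFKBIA, mock 120 min A lay below 0 with the other mock arrays, at -0.07, and the 4 flagellin arrays lay above 0.

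**Figure D3:**
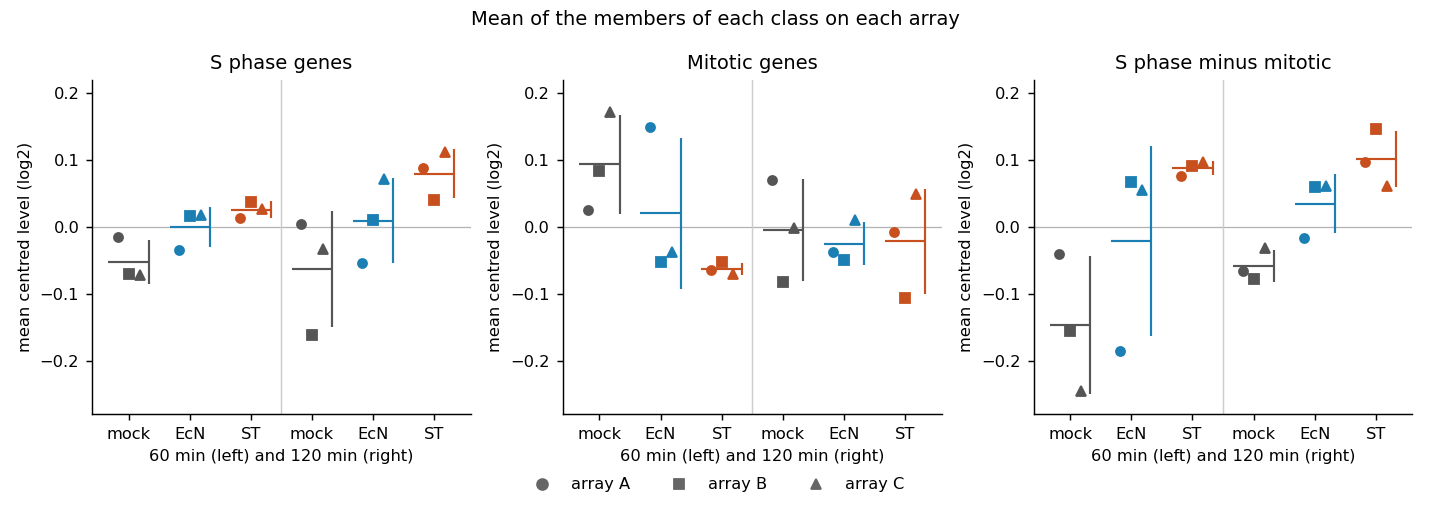
Mean centred level (log2) of the S phase genes, of the mitotic genes and their difference on each of the 18 arrays (mock grey, EcN blue, ST orange), with circles, squares and triangles for arrays A, B and C, a horizontal line at the group mean and a vertical bar of 1 SD on each side. In the right panel all 6 mock arrays lie below 0 and all 6 ST arrays above 0, and EcN 60 min A, at -0.19, lies with mock.

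Some arrays stood apart for whole roles. On EcN 60 min A the mitotic cyclins with CDK1 averaged 0.24 above their means, the highest of the 18 arrays for that role. On mock 120 min B the DNA synthesis genes averaged -0.22 and the helicase genes -0.18, the lowest of the 18 arrays for each. ISG15, an interferon-stimulated gene, stood at 4.22 on EcN 60 min A, against 5.91 and 5.79 on EcN 60 min B and C and 3.18 to 3.79 on mock at 60 min. EcN 120 min A had the same place at 120 min, with 4.53 against 6.12 and 5.85 on EcN 120 min B and C and 3.94 to 4.27 on mock. These are the 2 EcN arrays whose S phase minus mitotic mean lay below 0, and whether the measures have a common source was not tested.

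**Figure D4:**
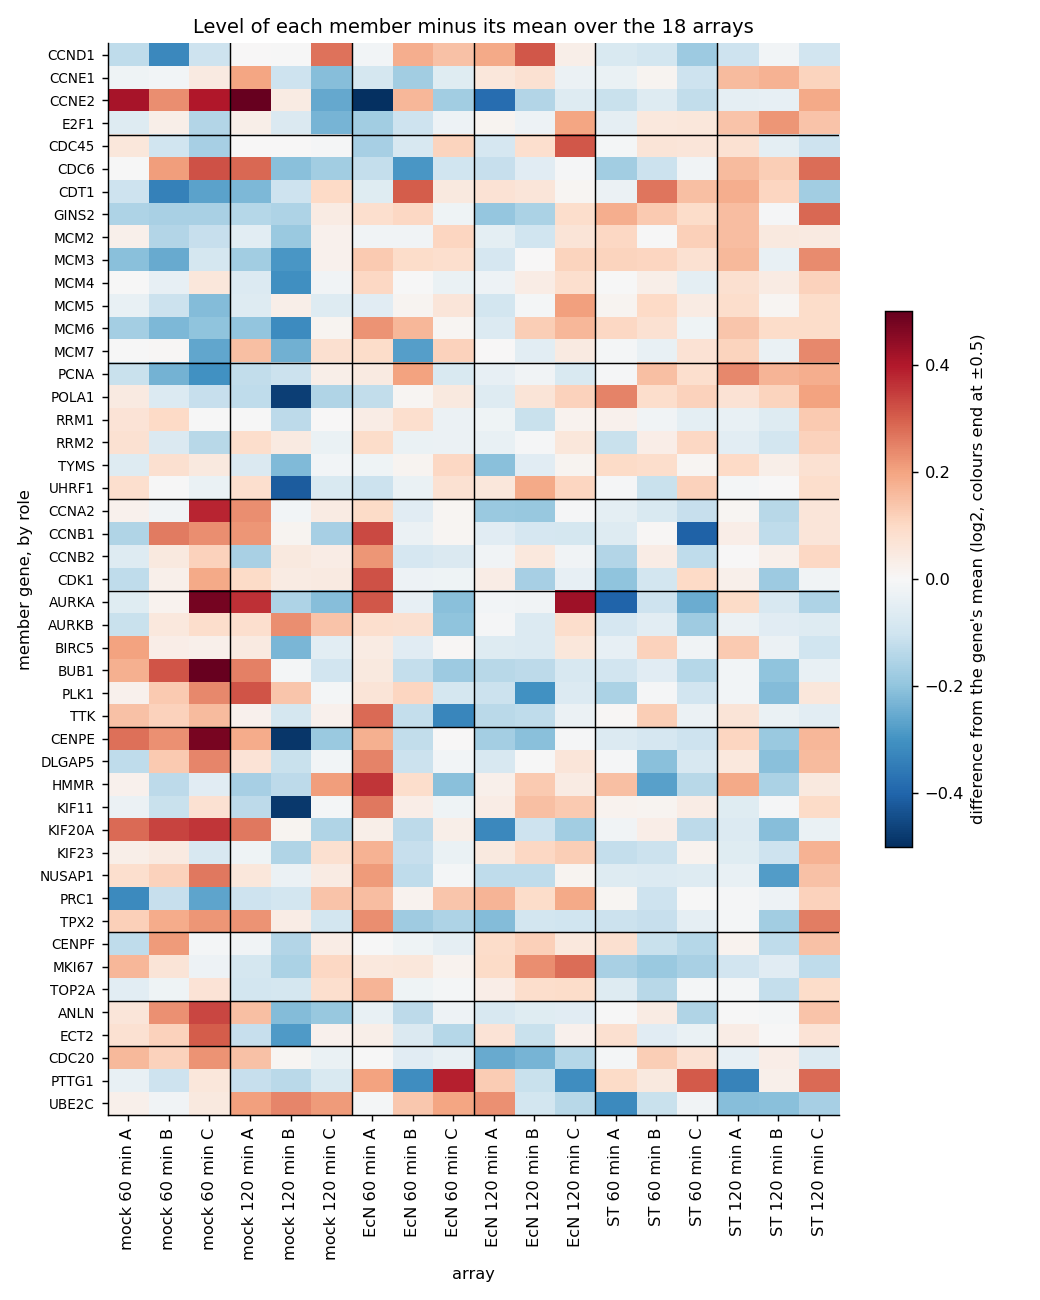
Level of each of the 47 members on each of the 18 arrays minus the gene's mean over all arrays (log2, colours end at ±0.5), with genes grouped by role and arrays by group. BUB1, KIF20A, CENPE and CCNE2 are red on the 3 mock 60 min arrays and mock 120 min A, and EcN 60 min A is red across most mitotic genes.

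Members of a class varied together within groups. After each group's mean was taken off, the median correlation over the 18 arrays was 0.30 for the 351 pairs of mitotic genes, 0.19 for the 190 pairs of S phase genes and 0.09 for the 540 pairs across classes, against 0.01 for all pairs of genes tested. The share of pairs with a correlation over 0.5 was 26.8%, 14.2% and 10.7%, against 5.99%. The closest mitotic pairs were NUSAP1 with DLGAP5, both spindle proteins, at 0.87, AURKA with BUB1 at 0.84 and CCNA2 with CENPE at 0.83. The closest S phase pairs were MCM5 with CDC45, both parts of the active helicase, at 0.85, MCM3 with GINS2 at 0.83, and UHRF1 with POLA1 at 0.82. The points of each correlation share their arrays and their normalization, and mock 120 min B is low for UHRF1 and POLA1 alike. These are descriptions over 18 arrays, with no p.

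Across all other genes, those most like the S phase mean by the same correlation were SNX1, SRSF6, LRP6, ZC3H12C, CHD4, HLA-B, RPS6KA4, CYLD, TK1 and SREK1IP1, from 0.90 down to 0.84. Only TK1, the thymidine kinase of S phase, was on a list of cell cycle genes. For the mitotic mean they were PUM3, SLC4A1AP, PSMD14, ZMPSTE24, WDR43, TAX1BP1, TMX3, ABCE1, ARL6IP4 and SNAR-F, from 0.92 to 0.87, and none of these was on such a list. Listed cell cycle genes still stood above the rest: 29 other replication genes had a median correlation of 0.31 with the S phase mean and 34 other mitotic genes one of 0.41 with the mitotic mean, against -0.02 and -0.01 over the 16064 genes that are no members.

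Other genes of the cycle gave a mixed picture at 60 min for the mean of both flagellins. Of 29 other replication genes measured, 1 rose and 2 fell (10.3%, the same share as the 10.3% of all genes). FEN1, the nuclease that trims Okazaki fragments, rose by 0.36 ± 0.08 (adjusted p = 0.0166). SLBP, which binds histone messages, fell by 0.41 ± 0.10 (adjusted p = 0.0210), and GINS1 fell by 0.34 ± 0.10 (adjusted p = 0.0337) where its partner GINS2 lay above mock. FEN1 was called without the 5 arrays with high NFKBIA (0.36, adjusted p = 0.0310), and SLBP and GINS1 were not (-0.35 and -0.32, adjusted p = 0.0685 and 0.0586). Of 34 other mitotic genes, 2 rose and 3 fell (14.7%). SGO2, which protects cohesion at centromeres, fell by 0.68 ± 0.11 (adjusted p = 0.00580), KIF4A, a chromosome-bound kinesin that works with PRC1, rose by 0.52 ± 0.12 (adjusted p = 0.0141), and BUB3, the partner of BUB1, fell by 0.28 ± 0.07 (adjusted p = 0.0244). CDKN3 fell by 0.30 ± 0.09 and MELK rose by 0.30 ± 0.08 (adjusted p = 0.0475 and 0.0277). Of these, SGO2, KIF4A and MELK were called without the 5 arrays (-0.65, 0.50 and 0.33), and BUB3 and CDKN3 were not (-0.26 and -0.29, adjusted p = 0.0727 and 0.135).

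Of 14 transcription factors of the cycle, 1 fell and none rose (7.14%, against 10.3% of all genes). E2F8, a repressor of the E2F family, fell by 0.53 ± 0.10 (adjusted p = 0.00772). The fitted difference was below 0 for 13 of the 14, with a median of -0.16, and this lean was not tested. FOXM1, the activator of many mitotic genes, had a difference of -0.36 ± 0.12 (adjusted p = 0.0685) and E2F3 one of -0.34 ± 0.12 (adjusted p = 0.0914). Of 11 CDK inhibitors, pocket proteins and inhibitory kinases, 1 rose (9.09%, against 10.3%), CDKN1C (p57) by 0.65 ± 0.17 (adjusted p = 0.0235). CDKN1A (p21) differed by 0.18 ± 0.10 (adjusted p = 0.292). Of 8 G1 cyclins and kinases, 1 rose (12.5%, against 10.3%), CCND2 by 0.55 ± 0.14 (adjusted p = 0.0244). Of 14 subunits and regulators of the anaphase-promoting complex, 1 rose and 2 fell (21.4%, against 10.3%). With lists this short, 1 call more or less moves the share widely. ANAPC11 rose by 0.66 ± 0.15 (adjusted p = 0.0144), and ANAPC10 and ANAPC4 fell by 0.34 ± 0.10 and 0.32 ± 0.09 (adjusted p = 0.0414 and 0.0396). E2F8, CDKN1C, CCND2 and ANAPC11 were called without the 5 arrays (-0.60, 0.70, 0.56 and 0.74), and ANAPC10 and ANAPC4 were not (-0.35 and -0.28, adjusted p = 0.0620 and 0.101). At 120 min, 1 gene of these lists was called for the mean of both, 1 of the 29 other replication genes (3.45%, against 0.732% of all genes). It was CLSPN, a checkpoint adaptor at the replication fork, which rose by 0.56 ± 0.12 (adjusted p = 0.0483). Without the 5 arrays its difference was 0.63 with an adjusted p of 0.114.

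Genes outside the cycle moved beside these at 60 min. Of 8 housekeeping genes measured, 2 were called (25.0%, against 10.3% of all genes). B2M rose by 0.46 ± 0.09 and HPRT1 fell by 0.34 ± 0.10 (adjusted p = 0.00868 and 0.0467). ACTB and GAPDH differed by -0.17 ± 0.22 and -0.25 ± 0.10 without a call. Of the 5 HEK293 markers 3 lay below 0, with a median of -0.21, among them VIM at -0.44 ± 0.16 (adjusted p = 0.0802). Of the same 5, 1 was called (20.0%), KRT18, which rose by 0.45 ± 0.11. CD68, listed for leukocytes and the only one of its 4 measured markers above the array median throughout, rose by 0.34 ± 0.10. The adjusted p was 0.0172 for KRT18 and 0.0321 for CD68. With EcN alone LGR5 fell by 0.59 ± 0.16 (adjusted p = 0.0364). EGR1, an immediate-early gene, rose by 1.75 ± 0.32 and ISG15 by 2.53 ± 0.35 (adjusted p = 0.00717 and 0.00523). B2M, KRT18, EGR1 and ISG15 were called for the mean without the 5 arrays (0.43, 0.48, 1.43 and 2.38) and LGR5 with EcN (-0.61), and HPRT1 and CD68 were not called (-0.27 and 0.34, adjusted p = 0.0883 and 0.0550). EGR1 did not keep its direction at 120 min. On mock it stood at 8.89 to 9.27 at 60 min and at 9.80, 10.99 and 10.84 on A, B and C at 120 min. The mean of both flagellins then differed from mock by -1.11 ± 0.32 (adjusted p = 0.0909). The part of these genes in the members' differences was not tested.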

How the data were processed

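The deposited table holds log2 values of 53617 transcript clusters on 18 arrays, made by the authors with RMA (oligo version 1.30.0, as the submitters' processing notes name it), and used as deposited (values from 0.17 to 13.62). Gene symbols came from the platform's annotation, with 655 symbols updated through the RefSeq gene table. A gene was tested if its row lay above the array median on at least 3 of the 18 arrays. Differences came from limma 3.58.1 in R 4.3.3 (lmFit and eBayes), with 6 group means, 12 residual and 4.20 prior degrees of freedom, two-sided p-values and Benjamini-Hochberg adjustment over 16111 genes within each comparison. The members, the role groups and the lists of other genes were chosen with earlier results of these data known. Array values were given in full for called members, for the 3 of each class with the highest SD or the largest difference from mock in a comparison, and for named standard members. The fit was tested on simulated data. The alternatives were no filter, a stricter filter, centring, quantile normalization, the mean of a gene's rows, trend and robust settings, array weights, a replicate block, the compared groups alone, and leaving out arrays.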

Additional observations from a re-analysis of the deposited data

How the results depend on the processing

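The members called numbered 2 with EcN, 1 with ST and 6 with the mean of both at 60 min. With EcN they were 1 with no filter, 4 with the stricter filter, 4 with quantile normalization once more, 6 with trend and robust settings, 10 with array weights and 0 when only the compared groups were fitted. With ST they were 2 with the stricter filter, 4 with quantile normalization, 7 with trend and robust settings and 7 with array weights. For the mean they were 2 with no filter and 12 with either trend and robust settings or array weights. Leaving out 1 array at a time gave 0 to 6, 0 to 3 and 0 to 11 in these 3 comparisons. At 120 min, where none was called, it gave 0 to 2 with EcN, 0 to 3 with ST and 0 to 3 for the mean, and trend and robust settings gave 1 with ST and 1 for the mean. For mock at 120 over 60 min it gave 0 to 4, and for the change of the ST effect 0 to 2. Chosen after seeing the data, a fit without the 5 arrays with high NFKBIA gave 0 with EcN, 0 with ST and 2 for mock at 120 over 60 min, and one without the 6 arrays lettered C gave 0 with EcN, 0 with ST and 0 for the mean at 60 min. The cause of these changes was not tested. Log2 fold changes of single members were compared only where the main fit or an alternative called the member against mock. Of these recomputed values, 999 kept their direction and their side of the threshold, 100 were no longer called, 90 became called and none reversed. For the classes, 13 medians moved by more than the spread between arrays.

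The labels do not say that the letters pair the arrays, and the values do not settle it. Same-letter arrays had correlations of -0.24 to 0.27 in their deviations from the group means (median 0.04). Of these 45 pairs, 10 exceeded 0.1. Different-letter arrays had correlations of -0.22 to 0.34 (median -0.02), and 14 of 90 pairs exceeded 0.1. With the letter as a replicate block, 0 members were called with EcN, 1 with ST and 4 for the mean at 60 min. Across 29 settings BUB1 was called in 26, KIF20A in 25, PCNA in 20, MCM6 in 16, MCM3 in 13 and PRC1 in 10 for that mean. Only 3 arrays per group limit the precision.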
